A study of Mus musculus with 6 samples.

Results

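The genes described here make, regulate and move cholesterol: 19 enzymes of the path from acetyl-CoA to cholesterol, 5 members of the SREBP control system and 8 genes of sterol transport, storage and efflux. They are 32 of the 27179 genes counted in the series, were listed by their known roles with earlier results of these data in view, and are taken in the order of the pathway. Their messenger RNA was counted in germinal vesicle oocytes of the mouse, which have finished growing and wait in meiotic prophase with an intact nucleus. The knockout oocytes lacked maternal Prdm10, a zinc finger gene of the PRDM family: Cre recombinase driven by Zp3, a promoter active in growing oocytes, had removed a floxed exon 5. The other group was labelled wildtype, and the labels do not say whether those oocytes carried the floxed allele or Cre, nor how old the females were. There were 3 knockout and 3 wildtype libraries, each from a pool of about 10 oocytes. The labels call the replicates biological but name no separate mice, and p-values therefore cover only the spread among these pools, which may be technical. In pools, fewer cells of a type and less RNA per cell cannot be told apart.

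Cholesterol is built from acetyl-CoA through the mevalonate pathway, which ends in farnesyl diphosphate; squalene is then made, closed into lanosterol and trimmed in many steps on the endoplasmic reticulum. The transcription factors SREBP-1 and SREBP-2 switch these genes on when the sterol sensor SCAP carries them to the Golgi, and the INSIG proteins hold SCAP back when sterol is plentiful. Mouse oocytes are known as poor makers of cholesterol that rely on sterol supplied by the surrounding cumulus cells.

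Library totals ran from 33698776 to 37966868 counts in knockout and from 22492228 to 38831227 counts in wildtype oocytes. Levels are given as CPM, read counts scaled to a common library size, and 1 count was worth 0.0258 to 0.0445 CPM before that scaling. Prdm10 itself had 2.80, 3.82 and 3.05 CPM in knockout libraries, against 10.4, 23.1 and 22.96 CPM in wildtype libraries (log2 fold change -2.54, adjusted p = 0.00436, edgeR quasi-likelihood test); the count covers exons outside the deletion too. Wildtype replicate 1 stood apart, with rank correlations across genes of 0.976 and 0.975 with the other wildtype libraries, which reached 0.996 with each other. Among the 32 sterol genes it was the lowest wildtype library for 17 and the highest for 13, and for every sterol gene whose call it changes the values with and without it are given. Oocyte markers summed to 27380 to 29020 CPM in knockout and 24400 to 29170 CPM in wildtype libraries. Of 12 oocyte markers 1 fell (Mos) and none rose, where 5.34% of all tested genes fell and 5.87% rose. Of 21 granulosa and cumulus cell markers 18 were tested, 1 rose (Ptgs2) and none fell, beside the same shares. The list summed to 85.6 to 108 CPM in knockout and 91.0 to 109 CPM in wildtype libraries. Ptx3 was the only 1 of the 21 without a count in any library. Cyp11a1 had 417 counts in knockout replicate 3 and 476 in wildtype replicate 1. It had 76 and 77 counts in the other knockout libraries and 45 and 21 in the other wildtype libraries. Not every marker went this way, and Cyp19a1 was highest in wildtype replicate 3, at 47.3 CPM. Theca and stroma markers summed to 3.86 to 6.20 CPM in knockout and 2.93 to 6.24 CPM in wildtype libraries. Among them Acta2 had 29 counts in knockout replicate 3 and 55 in wildtype replicate 1, against 0 to 2 in each other library. Dcn was more even, at 1.92 to 3.19 CPM over all libraries. The 9 blood, immune and endothelial markers in the files summed to 114 to 117 CPM in knockout and 34.6 to 78.0 CPM in wildtype libraries, most of it Pecam1, with Cd68 called higher and with Hba-a1 and Cdh5 at 0 in every library. The part of other cell types, and of whatever sets wildtype replicate 1 apart, in the values below was not tested.

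Of the 32 sterol genes 5 rose, 1 fell and 26 did not pass in knockout oocytes. Those that rose were Fdps, Hsd17b7, Sc5d, Dhcr7 and Stard4, by 1.5-fold to 1.92-fold, and the one that fell was Pmvk, by 3.68-fold. A gene passed where its adjusted p was under 0.05 (edgeR), with adjustment over all 14957 genes tested, and fold changes are knockout over wildtype. Gene coordinates are on GRCm38.p6. All 32 sterol genes had enough counts to be tested. The 6 called make 18.8% of the sterol genes, against 11.2% of all tested genes (5.87% higher and 5.34% lower). The median log2 fold change of the sterol genes was 0.14, against -0.00 over all tested genes. Knockout libraries lay entirely above the wildtype libraries for 15 sterol genes and entirely below them for 6, where the shares over all tested genes were 21.0% and 19.2%, together 40.2%.

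**Figure D1:**
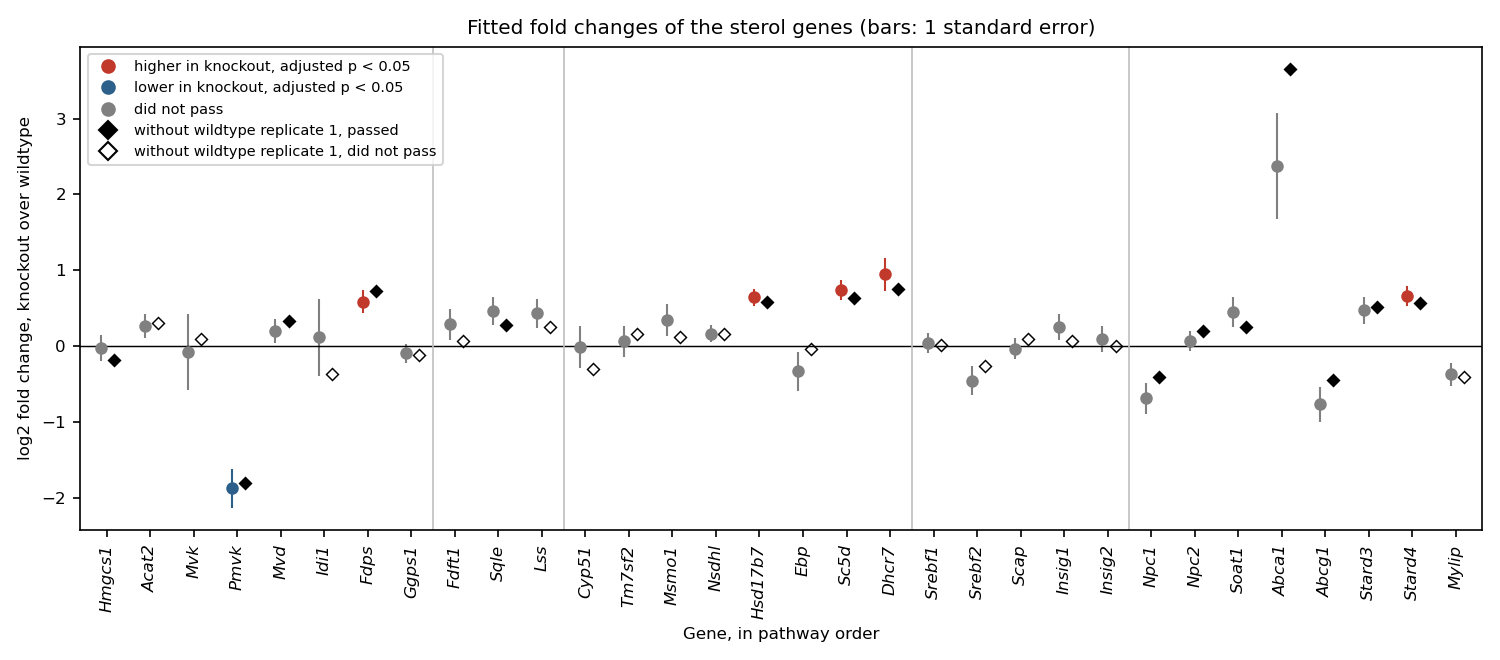
Fitted log2 fold changes, knockout over wildtype, of the 32 sterol genes in pathway order. Circles are the fit on all 6 libraries with 1 standard error, coloured where the adjusted p was under 0.05, and diamonds are the fit without wildtype replicate 1, filled where it passed. Fdps, Hsd17b7, Sc5d, Dhcr7 and Stard4 lie above 0 and Pmvk lies lowest, at -1.88.

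Leaving out wildtype replicate 1 moved these counts to 11 higher and 4 lower, against 16.7% and 17.7% of all genes then tested, together 34.4%. The 6 called genes kept their calls in that fit. The genes added as higher were Mvd, Sqle, Npc2, Soat1, Abca1 and Stard3, and those added as lower were Hmgcs1, Npc1 and Abcg1. Without any 1 of the knockout libraries no sterol gene passed as higher and only Pmvk passed as lower. Without wildtype replicate 2 or 3 there were 2 and 3 higher, with Pmvk alone lower. Over all genes too, calls were far fewer in at least 1 of these fits than with all libraries, as the closing section gives. The lost calls are therefore no trait of the sterol genes alone.

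The 250 bases before an annotated start of each of 5 of these genes are shown because sterol genes share binding letters there and because 4 of the genes moved. The start used can lie inside the gene span given below. It does for Hsd17b7, whose span ends at base 169969242 (minus strand), and for Dhcr7, whose span begins at base 143823167 (plus strand). Pmvk fell, Hsd17b7, Sc5d and Dhcr7 rose, and Hmgcs1 is an abundant early enzyme and the only synthesis gene matched whose window holds the sterol regulatory element letters. Sequences are from RefSeq on GRCm38.p6, written 5′ to 3′ along each gene, and capitals mark the letters TCACNCCAC (sterol regulatory element), CCAAT (NF-Y), CACGTG (E-box) and GGGCGG (Sp1) on either strand, with overlapping matches run together.
Hmgcs1 (chr13:119690101-119690350, plus strand): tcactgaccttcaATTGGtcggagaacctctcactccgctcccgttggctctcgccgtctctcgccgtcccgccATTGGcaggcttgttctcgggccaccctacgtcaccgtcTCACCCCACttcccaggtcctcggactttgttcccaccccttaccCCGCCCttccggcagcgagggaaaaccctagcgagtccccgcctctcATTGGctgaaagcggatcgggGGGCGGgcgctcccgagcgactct
Pmvk (chr3:89454291-89454540, plus strand): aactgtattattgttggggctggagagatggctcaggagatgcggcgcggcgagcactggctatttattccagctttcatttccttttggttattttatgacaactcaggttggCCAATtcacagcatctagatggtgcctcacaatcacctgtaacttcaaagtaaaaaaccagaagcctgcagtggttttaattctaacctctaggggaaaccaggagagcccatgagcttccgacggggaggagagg
Hsd17b7 (chr1:169969206-169969455, minus strand): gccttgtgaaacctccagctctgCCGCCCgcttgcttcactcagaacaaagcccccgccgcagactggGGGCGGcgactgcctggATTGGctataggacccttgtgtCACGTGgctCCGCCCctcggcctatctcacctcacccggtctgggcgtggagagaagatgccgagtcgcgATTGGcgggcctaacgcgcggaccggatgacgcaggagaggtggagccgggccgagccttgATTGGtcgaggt
Sc5d (chr9:42264301-42264550, minus strand): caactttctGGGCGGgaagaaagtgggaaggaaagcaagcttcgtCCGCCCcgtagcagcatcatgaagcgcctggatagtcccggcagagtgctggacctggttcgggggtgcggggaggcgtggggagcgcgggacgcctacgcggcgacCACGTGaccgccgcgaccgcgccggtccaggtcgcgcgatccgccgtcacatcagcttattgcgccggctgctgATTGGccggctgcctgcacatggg
Dhcr7 (chr7:143829964-143830213, plus strand): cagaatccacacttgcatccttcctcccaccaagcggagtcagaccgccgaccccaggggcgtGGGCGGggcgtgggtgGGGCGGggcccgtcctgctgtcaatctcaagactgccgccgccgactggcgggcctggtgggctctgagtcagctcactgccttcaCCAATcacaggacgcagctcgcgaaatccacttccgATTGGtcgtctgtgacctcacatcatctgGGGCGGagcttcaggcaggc
For Dhcr7 the table holds 3 starts and the third is shown, the one with NF-Y letters; Pmvk has 2 starts and the first is shown. The table matched 26 of the 32 genes, with 34 windows of 300 bases that reach 50 bases past the start. The sterol regulatory element letters were in 2 of these windows (5.88%), those of Hmgcs1 and Stard3, against 1.24% of 32851 windows of all genes. NF-Y letters were in 24 windows (70.6% against 37.4%), Sp1 letters in 28 (82.4% against 35.7%) and the E-box in 7 (20.6% against 7.15%). Windows of the same gene can overlap, as those of Scap do, so a site can count more than once. By gene, NF-Y letters were in 23, Sp1 letters in 24 and the E-box in 6 of the 26 matched. The 32851 windows were not limited to genes tested in these oocytes, as all 32 sterol genes were. Whether the larger shares are particular to sterol genes was not tested. Hsd17b7 and Sc5d carry the E-box upstream, at 143 and 98 bases before the start used, and in Dhcr7 it lies in the window of another start. The E-box was also in windows of Insig1, Scap and Abca1, none of which passed with all libraries. Whether its presence goes with the rise was not tested. The Pmvk window shown holds only 1 of the 4 motifs, a CCAAT that begins 136 bases before the start, and its second window holds none. The upstream part of that second window begins at base 89459321, inside the gene, which spans 89454541 to 89469014. Its bases can therefore be transcribed or coding, and most bases between the windows were not searched. The few matches do not show that Pmvk lacks these letters. Letters before any other start of Pmvk would have been missed. A match describes the letters and is not a binding site.

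Levels along the path were very uneven in both genotypes. To compare genes, CPM was divided by exon length in kilobases. Hmgcs1, which makes HMG-CoA, and Fdft1, the squalene synthase that commits farnesyl diphosphate to sterols, stood far above the rest, at 160 ± 1.02 and 185 ± 4.18 CPM per kilobase in knockout and 163 ± 34.3 and 152 ± 42.8 CPM per kilobase in wildtype oocytes (SD, n = 3 each). Both exceeded over 96% of the 13820 tested genes with a known length. At the other end Mvk, mevalonate kinase, reached 0.173 ± 0.0494 CPM per kilobase in knockout and 0.181 ± 0.103 in wildtype oocytes, from 8 to 13 and 3 to 15 counts per library. The highest of the 19 enzymes was 1072-fold above the lowest in knockout and 897-fold in wildtype oocytes, a ratio that rests on those few Mvk counts. Hmgcs1 and Fdft1 held 65.7 ± 0.0463% of the summed CPM per kilobase of the 19 enzymes in knockout and 70.0 ± 3.90% in wildtype libraries, where replicate 1 had 65.5% and the other wildtype libraries 72.4% and 72.1%.

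**Figure D2:**
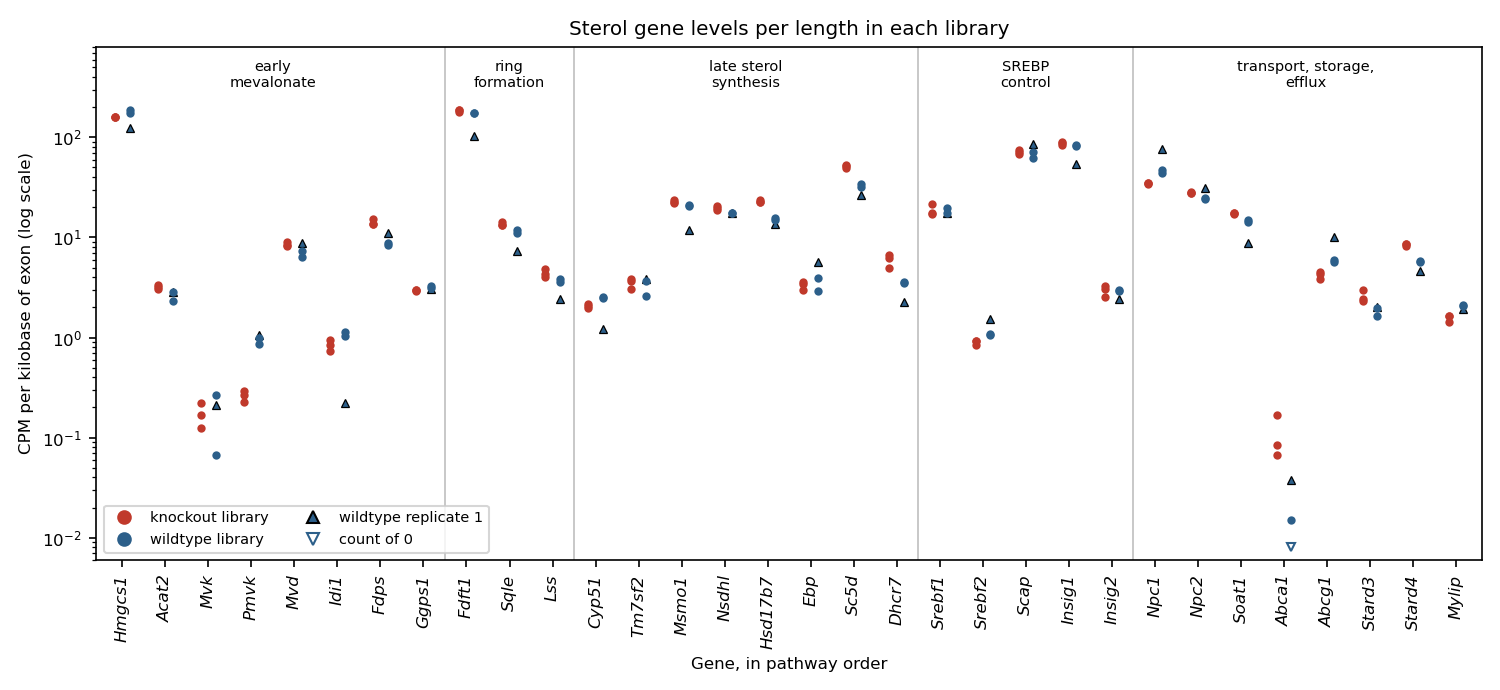
Level of each sterol gene in each library, in CPM per kilobase of exon on a log scale, in pathway order with vertical lines between roles. Knockout libraries are red and left of the wildtype libraries, triangles are wildtype replicate 1, and the open triangle is a count of 0. Hmgcs1 and Fdft1 lie above 100 and Mvk, Pmvk and Idi1 lie lowest among the enzymes.

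In the order of wildtype levels per kilobase, Insig1 (73.4 ± 16.2), Scap (73.0 ± 11.5) and Npc1 (55.8 ± 17.6 CPM per kilobase) came after the first pair of genes, and then Sc5d and Npc2. A middle group from Srebf1 to Mvd lay between 18.2 and 7.45 CPM per kilobase, followed by 12 genes from Abcg1 at 7.22 to Stard3 at 1.86 CPM per kilobase, and Srebf2, Pmvk, Idi1, Mvk and Abca1 closed the order at 1.22 or less. The ranges of the wildtype libraries overlapped for 24 of the 31 neighbouring pairs, so most neighbours cannot be ordered. The breaks without overlap fell after Fdft1, Npc1, Npc2, Nsdhl, Stard3, Srebf2 and Mvk. In knockout oocytes Fdft1 rather than Hmgcs1 ranked first, and Dhcr7 held rank 17, against rank 22 in wildtype oocytes.

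In the early mevalonate pathway 1 of 8 genes rose, 1 fell and 6 did not pass, where 5.87% of all tested genes rose and 5.34% fell. Pmvk (Entrez 68603, chromosome 3, 89454541 to 89469014) encodes phosphomevalonate kinase, the second of the kinases that act on mevalonate. It had 0.383, 0.454 and 0.503 CPM in knockout libraries, against 1.80, 1.46 and 1.69 CPM in wildtype libraries. Every knockout library lay below the lowest wildtype library, but the counts behind them were small, 13, 17 and 19 in knockout and 75, 38 and 37 in wildtype libraries. The log2 fold change was -1.88 (SE 0.256, adjusted p = 0.00539, edgeR), and it passed without any 1 of the 6 libraries, at adjusted p of 0.00107 to 0.0438. Per kilobase, Pmvk stood above 9.20% of tested genes in knockout and 24.8% in wildtype oocytes.

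Fdps (Entrez 110196, chromosome 3, 89093588 to 89101967), the synthase of farnesyl diphosphate, had 19.7, 22.0 and 19.7 CPM in knockout libraries, against 16.0, 12.7 and 12.1 CPM in wildtype libraries. The genotypes did not overlap, and wildtype replicate 1 was the closest to the knockout libraries. Its call was marginal (log2 0.59, SE 0.153, adjusted p = 0.0481, edgeR) and held without wildtype replicate 1 (adjusted p = 0.000448) but not without any other library (adjusted p = 0.118 to 0.233).

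The other early genes did not pass. Hmgcs1 had 552, 558 and 559 CPM in knockout libraries, against 430.4, 654 and 615 CPM in wildtype libraries, so the knockout libraries lay between wildtype replicate 1 and the other wildtype libraries. Its log2 fold change was -0.03 (SE 0.166) with all libraries and -0.19 (adjusted p = 0.0156, edgeR) without wildtype replicate 1. Mvd, the decarboxylase that makes isopentenyl diphosphate, had a log2 change of 0.20 (SE 0.155), or 0.33 (adjusted p = 0.0413, edgeR) without that library. Idi1, which isomerises isopentenyl diphosphate, had 2.56, 2.24 and 2.83 CPM in knockout libraries, against 0.672, 3.47 and 3.11 CPM in wildtype libraries. Wildtype replicate 1 was the lowest of all 6 here, and the log2 fold change was 0.11 (SE 0.512) with it and -0.37 (adjusted p = 0.162, edgeR) without it. Acat2, the cytosolic thiolase that starts the path, had a log2 change of 0.26 (SE 0.159), and Ggps1, which makes the geranylgeranyl diphosphate used for protein prenylation, had -0.10 (SE 0.123). Mvk had -0.08 (SE 0.505) from its few counts. Acat2 and Idi1 have close copies in the genome, Acat3 and Idi2, so reads could be shared there.

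None of the 3 genes of sterol ring formation passed in edgeR, DESeq2 or limma-voom. Of the 3, only Sqle had an unadjusted p under 0.05 in edgeR, as had 4314 of all 14957 tested genes. Every knockout library lay above every wildtype library for each of the 3, as for 21.0% of all tested genes. Fdft1 had 666, 690 and 695 CPM in knockout libraries, against 378.7, 651 and 655 CPM in wildtype libraries, with wildtype replicate 1 far below the other wildtype libraries. Its log2 fold change was 0.28 (SE 0.208) with that library and 0.07 (adjusted p = 0.34, edgeR) without it. Fdft1 overlaps Ctsb, the lysosomal protease cathepsin B (log2 0.47, adjusted p = 0.0702, edgeR), so reads could be shared between them. Sqle, squalene epoxidase, a rate-limiting oxygenase, had 37.1, 36.9 and 39.5 CPM in knockout libraries, against 20.1, 30.2 and 32.4 CPM in wildtype libraries. It had a log2 change of 0.46 (SE 0.186, adjusted p = 0.153, edgeR), and of 0.27 (adjusted p = 0.0293, edgeR) without wildtype replicate 1. Lss, the cyclase that forms lanosterol, had 0.43 (SE 0.195, adjusted p = 0.19, edgeR) and 0.25 (adjusted p = 0.106, edgeR).

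In late sterol synthesis, the steps from lanosterol to cholesterol, 3 of 8 genes rose, none fell and 5 did not pass. Over all tested genes 5.87% rose and 5.34% fell. Sc5d (Entrez 235293, chromosome 9, 42251592 to 42264300), the desaturase that makes 7-dehydrocholesterol, had 234, 249 and 255 CPM in knockout libraries, against 126, 165 and 153 CPM in wildtype libraries. It was the most abundant late enzyme per kilobase in both genotypes, and all knockout libraries lay above the highest wildtype library (log2 0.74, SE 0.133, adjusted p = 0.015, edgeR). Hsd17b7 (Entrez 15490, chromosome 1, 169949535 to 169969242), the sterol 3-ketoreductase that completes removal of the methyl groups at the fourth carbon of the sterol, had 104, 109 and 105 CPM in knockout libraries, against 62.3, 69.5 and 71.9 CPM in wildtype libraries. Both groups were tight and well apart (log2 0.64, SE 0.112, adjusted p = 0.0134, edgeR). Dhcr7 (Entrez 13360, chromosome 7, 143823167 to 143848410), the reductase of the last step, had 14.1, 18.6 and 17.6 CPM in knockout libraries, against 6.34, 9.86 and 10.1 CPM in wildtype libraries. The lowest knockout library was above the highest wildtype library, and the fold change was the largest among the called enzymes that rose (log2 0.94, SE 0.214, adjusted p = 0.0318, edgeR).

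**Figure D3:**
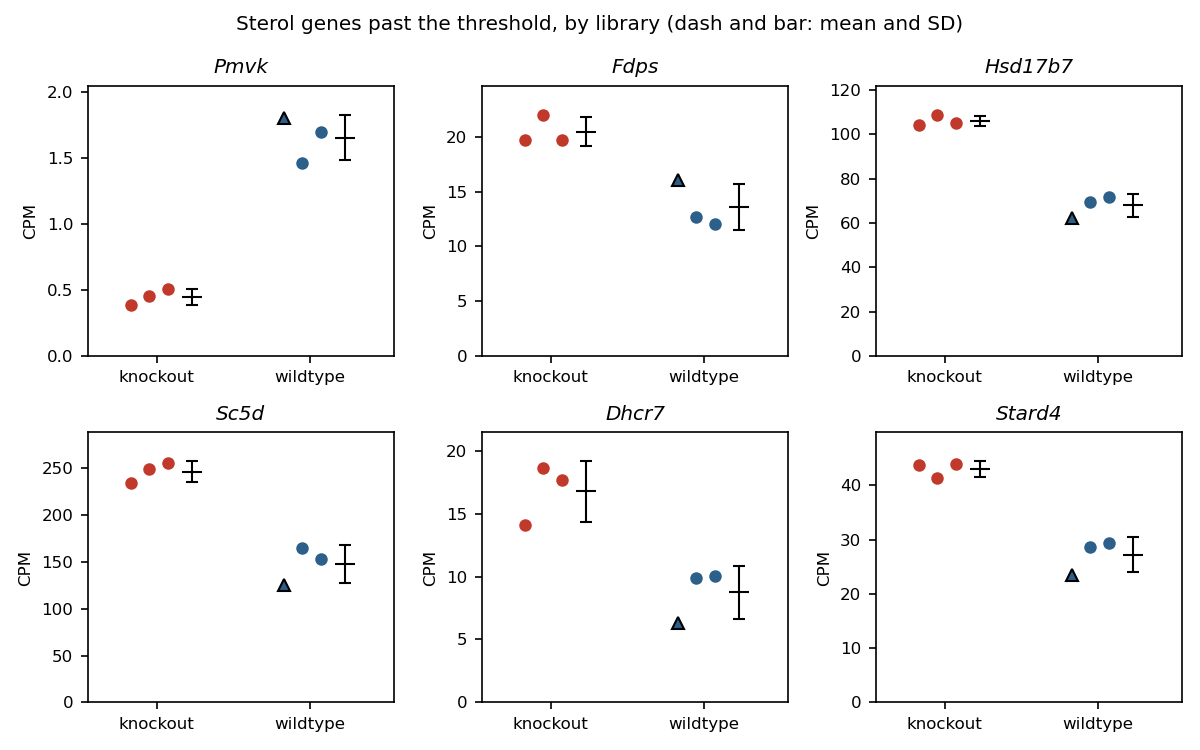
CPM in each library for the 6 sterol genes past the threshold, knockout libraries red on the left and wildtype libraries blue on the right, with mean and SD beside them; triangles are wildtype replicate 1. Pmvk lies lower in all 3 knockout libraries and the other 5 genes lie higher in all 3.

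These 3 calls held without wildtype replicate 1, at adjusted p of 3.38e-05 for Sc5d, 6.07e-05 for Hsd17b7 and 0.00167 for Dhcr7 (edgeR). None held without any 1 of the knockout libraries, where adjusted p was 0.0697 to 0.0848 for Sc5d, 0.0694 to 0.0868 for Hsd17b7 and 0.0843 to 0.132 for Dhcr7. Dhcr7 also missed the threshold without wildtype replicate 2 (adjusted p = 0.0576) or 3 (0.0521), while Sc5d and Hsd17b7 passed. Their log2 changes stayed between 0.63 and 0.82 for Sc5d, 0.58 and 0.69 for Hsd17b7, and 0.75 and 1.06 for Dhcr7 over these fits.

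Of the late genes that did not pass, Msmo1, the sterol methyl oxidase, had 48.7, 44.9 and 46.2 CPM in knockout libraries, against 24.5, 42.3 and 43.4 CPM in wildtype libraries, with wildtype replicate 1 again far below the others. Its log2 fold change was 0.35 (SE 0.215) with that library and 0.12 without it. Cyp51, the lanosterol demethylase, had -0.01 (SE 0.273) and -0.30 (adjusted p = 0.075, edgeR). Nsdhl, the dehydrogenase that works beside Hsd17b7, had 40.4, 42.9 and 44.5 CPM in knockout libraries, against 38.0, 38.2 and 37.9 CPM in wildtype libraries, a small and complete separation (log2 0.16, SE 0.111, adjusted p = 0.358, edgeR). Tm7sf2, a sterol reductase, had a log2 change of 0.06 (SE 0.203), and Ebp, the sterol isomerase, of -0.34 (SE 0.252), or -0.03 without wildtype replicate 1, which was the highest library for it. Tm7sf2 overlaps Vps51, so their reads could be shared.

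Summed over the 19 enzymes, knockout libraries held 1800, 1846 and 1860 CPM, against 1172, 1748 and 1705 CPM in wildtype libraries. Without Hmgcs1 and Fdft1 the other 17 enzymes summed to 581, 599 and 606 CPM in knockout libraries, against 363, 443 and 435 CPM in wildtype libraries. Knockout libraries were above every wildtype library in both sums. Hmgcs1 and Fdft1 together had 1219, 1248 and 1254 CPM in knockout libraries, against 809, 1305 and 1269 CPM in wildtype libraries, so that pair overlapped. Sc5d and Hsd17b7 were the largest parts of the sum over the other 17, and since their rise is already among the calls the sums carry no test.

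None of the 5 SREBP control genes passed in edgeR, DESeq2 or limma-voom. Of the 5, only Srebf2 had an unadjusted p under 0.05 in edgeR, as had 4314 of all 14957 tested genes. Srebf1 encodes SREBP-1, which is tied more to fatty acid genes, and had 92.0, 74.3 and 75.7 CPM in knockout libraries, against 75.3, 84.1 and 75.5 CPM in wildtype libraries. The ranges overlapped, and the log2 fold change was 0.04 (SE 0.13, adjusted p = 0.855, edgeR). Srebf2 encodes SREBP-2, the main driver of sterol genes in other tissues, and had 4.66, 4.65 and 4.32 CPM in knockout libraries, against 7.73, 5.43 and 5.44 CPM in wildtype libraries. All knockout libraries were lower, with a log2 change of -0.46 (SE 0.192, adjusted p = 0.164, edgeR), and of -0.26 (adjusted p = 0.195, edgeR) without wildtype replicate 1. Per kilobase, Srebf1 stood 21.0-fold above Srebf2 in knockout and 14.9-fold above it in wildtype oocytes. Srebf1 overlaps Rai1, which was far scarcer.

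Scap, the sterol sensor, had 314, 300.2 and 289 CPM in knockout libraries, against 359, 304 and 263 CPM in wildtype libraries. The knockout range lay inside the wildtype range (log2 -0.03, SE 0.14, adjusted p = 0.891, edgeR). Insig1, a retention protein that is itself an SREBP target, had 241, 228 and 236 CPM in knockout libraries, against 148, 224 and 222 CPM in wildtype libraries. Knockout libraries were all higher, but by little over wildtype replicates 2 and 3: the log2 fold change was 0.25 (SE 0.172, adjusted p = 0.375, edgeR) with all libraries and 0.07 (adjusted p = 0.331, edgeR) without wildtype replicate 1. Insig2, the other retention protein, had 8.96, 9.67 and 7.50 CPM in knockout libraries, against 7.08, 8.86 and 8.55 CPM in wildtype libraries (log2 0.10, SE 0.169, adjusted p = 0.736, edgeR). Insig1 stood 29.5-fold above Insig2 per kilobase in knockout and 26.6-fold in wildtype oocytes.

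Among the 8 genes of sterol transport, storage and efflux, 1 rose, none fell and 7 did not pass. Over all tested genes 5.87% rose and 5.34% fell. The genotypes did not overlap for 7 of the 8, against 40.2% of all tested genes. Stard4 (Entrez 170459, chromosome 18, 33199138 to 33213862), a soluble protein that carries cholesterol between membranes, had 43.7, 41.4 and 43.9 CPM in knockout libraries, against 23.5, 28.7 and 29.5 CPM in wildtype libraries. All knockout libraries were higher (log2 0.66, SE 0.132, adjusted p = 0.021, edgeR). The call held without wildtype replicate 1 (adjusted p = 0.000401) or 3 (0.0456) but not without wildtype replicate 2 (0.0558) or when 1 knockout library was dropped (0.0921 to 0.1). Stard3, a membrane-bound relative on late endosomes, had a log2 change of 0.47 (SE 0.184, adjusted p = 0.14, edgeR), and of 0.52 (adjusted p = 0.0441, edgeR) without wildtype replicate 1.

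Npc1 and Npc2 pass cholesterol out of the lysosome. Npc1 had 178, 183 and 182 CPM in knockout libraries, against 397, 231 and 246 CPM in wildtype libraries, so all knockout libraries were lower and wildtype replicate 1 was far above the rest. The log2 fold change was -0.69 (SE 0.207, adjusted p = 0.0726, edgeR) with all libraries, and -0.40 (adjusted p = 0.000326, edgeR) without wildtype replicate 1, where the smaller change passed. Npc1 overlaps Rmc1 (log2 0.22, adjusted p = 0.537, edgeR). Npc2 had a log2 change of 0.07 (SE 0.132), and of 0.20 (adjusted p = 0.0312, edgeR) without that library, the opposite direction to Npc1.

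Soat1 esterifies cholesterol for storage. It had 147, 142 and 146 CPM in knockout libraries, against 74.0, 125 and 120.0 CPM in wildtype libraries, with wildtype replicate 1 the lowest of all. Its log2 fold change was 0.45 (SE 0.196, adjusted p = 0.175, edgeR), and 0.25 (adjusted p = 0.0076, edgeR) without wildtype replicate 1. Abcg1, an exporter of sterol to lipoprotein particles, had 22.3, 26.5 and 25.4 CPM in knockout libraries, against 58.7, 34.7 and 32.9 CPM in wildtype libraries. It was lower in every knockout library (log2 -0.77, SE 0.231, adjusted p = 0.0718, edgeR), and the log2 fold change was -0.45 (adjusted p = 0.00475, edgeR) without wildtype replicate 1. Abca1, the other main exporter, was scarce, with 59, 26 and 33 counts in knockout libraries, against 16, 4 and 0 counts in wildtype libraries. From these few counts the log2 fold change was 2.37 (SE 0.704, adjusted p = 0.0695, edgeR) with all libraries. Without wildtype replicate 1 it was 3.65 (adjusted p = 0.00384, edgeR). Mylip, a ubiquitin ligase that removes lipoprotein receptors, had 5.01, 4.996 and 4.37 CPM in knockout libraries, against 5.91, 6.28 and 6.45 CPM in wildtype libraries (log2 -0.37, SE 0.154, adjusted p = 0.157, edgeR).

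**Figure D4:**
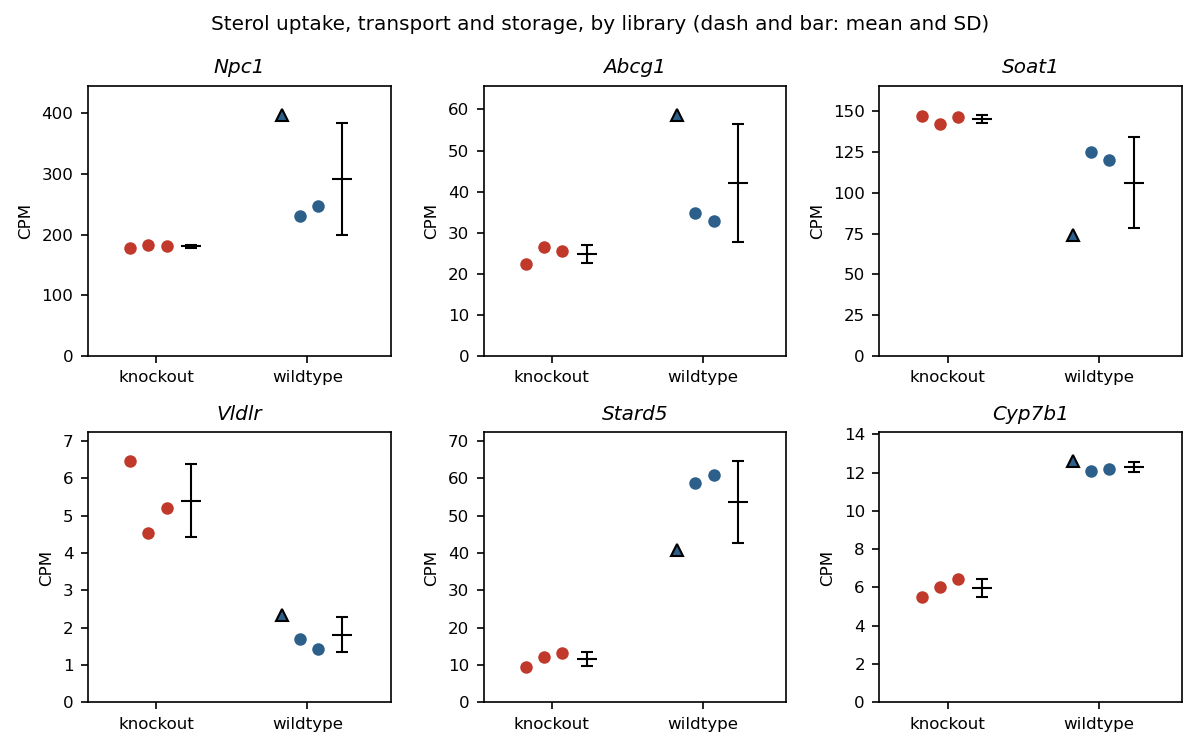
CPM in each library for 3 sterol transport genes that did not pass with all libraries (Npc1, Abcg1 and Soat1) and 3 related genes that did (Vldlr, Stard5 and Cyp7b1). Knockout libraries are red on the left and wildtype libraries blue on the right, with mean and SD beside them, and triangles are wildtype replicate 1, which lies far from the other wildtype libraries in the first 3 panels.

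Genes next to the pathway were taken as 7 lists of 94 genes in all, of which 86 were tested, 3 rose and 4 fell. Their median log2 fold change was 0.12, and 8.14% were called, against 11.2% of all tested genes. Of 8 tested lipoprotein receptors and genes of lysosomal sterol release, 2 rose and none fell, where 5.87% of all tested genes rose. Vldlr, the very low density lipoprotein receptor, had 6.45, 4.54 and 5.22 CPM in knockout libraries, against 2.33, 1.70 and 1.42 CPM in wildtype libraries (log2 1.55, SE 0.246, adjusted p = 0.00978, edgeR). The lowest knockout library was well above the highest wildtype library, and the call was lost only without knockout replicate 1 (adjusted p = 0.0534). Lrpap1, a chaperone of that receptor family, had 92.0, 89.2 and 91.5 CPM in knockout libraries, against 38.9, 57.9 and 61.3 CPM in wildtype libraries (log2 0.79, adjusted p = 0.031, edgeR), and its call was lost without wildtype replicate 2 (adjusted p = 0.0597) or on dropping 1 knockout library (0.11 to 0.131). Scarb1, the receptor for high density lipoprotein, had a log2 change of -0.24 (adjusted p = 0.28, edgeR).

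Among 19 tested genes of sterol transfer at membrane contacts 2 fell and none rose, where 5.34% of all tested genes fell. Stard5, a soluble sterol carrier of the same family as Stard4, had 9.52, 12.3 and 13.3 CPM in knockout libraries, against 40.9, 58.9 and 60.8 CPM in wildtype libraries. It was 4.58-fold lower (log2 -2.19, SE 0.205, adjusted p = 0.00135, edgeR), opposite to Stard4, and passed without any 1 of the libraries. Stard10, a phospholipid carrier, had 1.77, 2.08 and 1.72 CPM in knockout libraries, against 5.96, 3.20 and 4.16 CPM in wildtype libraries (log2 -1.26, adjusted p = 0.0243, edgeR), and its call was lost without any 1 of the knockout libraries (adjusted p = 0.0957 to 0.117).

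Of 12 tested LXR receptors, oxysterol enzymes and efflux genes 2 fell and none rose, where 5.34% of all tested genes fell. Cyp7b1, which hydroxylates oxysterols, had 5.48, 6.04 and 6.44 CPM in knockout libraries, against 12.6, 12.1 and 12.2 CPM in wildtype libraries. Both groups were tight (log2 -1.04, SE 0.14, adjusted p = 0.00532, edgeR), and the call held without any 1 of the libraries. Nr1h3, the sterol-activated receptor LXR alpha, had 4, 2 and 2 counts in knockout libraries, against 79, 32 and 9 counts in wildtype libraries (adjusted p = 0.0117, edgeR); the call was lost without any 1 of the knockout libraries (adjusted p = 0.0626 to 0.0738). Nr1h3 overlaps Acp2, which was also lower (log2 -0.72, adjusted p = 0.0413, edgeR), so reads could be shared. Nr1h2, the other LXR, had a log2 change of -0.14 (adjusted p = 0.453, edgeR).

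The fatty acid branch of SREBP targets had 1 of 11 tested genes higher and none lower, where 5.87% of all tested genes were higher. That gene was Fads1, a fatty acid desaturase, with 34, 38 and 51 counts in knockout libraries, against 5, 12 and 8 counts in wildtype libraries (log2 1.91, SE 0.454, adjusted p = 0.0357, edgeR). The call was lost without wildtype replicate 3 (adjusted p = 0.0696) or with 1 knockout library fewer (0.117 to 0.135). Knockout libraries lay entirely above the wildtype libraries for 9 of the 11, against 21.0% of all tested genes, and the median log2 fold change of the 11 was 0.48, against -0.00 over all tested genes. Among them Fasn, fatty acid synthase, had 0.49 (adjusted p = 0.121, edgeR) and Scd2, a stearoyl-CoA desaturase, 0.98 (adjusted p = 0.0796, edgeR), so neither passed.

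The remaining lists had no call in edgeR. As background for the counts below, 4314 of all 14957 tested genes had an unadjusted p under 0.05 in edgeR. None of 16 genes of the isoprenoid branches passed, with 2 at an unadjusted p under 0.05 and 0 called by DESeq2 or limma-voom. Of 14 genes of SREBP processing and sterol-regulated degradation none passed, with 3 at an unadjusted p under 0.05, 2 called higher by DESeq2 (Trim35 and Ufd1) and 1 by limma-voom (Trim35). Mbtps1 and Mbtps2, the proteases that release SREBP, had log2 changes of 0.46 (adjusted p = 0.173, edgeR) and -0.35 (adjusted p = 0.176, edgeR). Of 6 thiolase and ketone genes none passed, with 2 at an unadjusted p under 0.05, 1 called higher by DESeq2 (Bdh1) and 0 by limma-voom. Without wildtype replicate 1 the 7 lists had 19 higher, Scd2 and Bdh1 among them, and 17 lower, Scarb1 among them, where 16.7% and 17.7% of all genes then tested were higher and lower. The related genes named here beyond those that passed were chosen after their values were seen, as well-known members of their lists.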

How the data were processed

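Per the labels' protocols, RNA from pools of about 10 oocytes was extracted with the PicoPure kit, amplified with the SMARTer Ultra Low Input kit and made into single-end NexteraXT libraries. The submitters' processing notes name STAR 2.7.11a, featureCounts 2.0.3 and build GRCm38.p6 (mm10); annotation, strand setting and multi-mapping rule: not given in the sources used here, so overlapping genes and close copies may share reads. The authors deposited raw counts per Entrez gene, 1 file per library. RefSeq names of the same assembly matched 25275 of 27179 identifiers and GENCODE M21 another 18.

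Genes were kept with filterByExpr (minimum count 10), scaled by TMM and tested by the quasi-likelihood F test of edgeR 4.0.16 (R 4.3.3) with Benjamini-Hochberg adjustment; standard errors are the absolute log2 fold change over the square root of F. CPM uses TMM-scaled library sizes, and values are mean ± SD. Exon lengths are unions of GENCODE M21 transcripts paired with RefSeq, known for 32 of 32 sterol genes; the transcripts used in oocytes may be shorter. The fit was tested on simulated counts. Replicates differed by more than sampling noise (chi-square per degree of freedom of at least 4.39). Alternatives were DESeq2 size factors, library totals, no filter, 5 CPM in 3 libraries, DESeq2 1.42.0, limma-voom (limma 3.58.1), a replicate block and each library left out. The members and lists were chosen with earlier results of these data known. All sterol genes are named, with values per library for called genes and SREBP regulators and for others where they show the spread; called genes of the related lists are named, at most 4 a list. Counting error alone limits genes with few reads.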

Additional observations from a re-analysis of the deposited data

How the results depend on the processing

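The count of sterol genes called higher, 5 with all libraries, was 4 to 6 under every alternative scaling, filter and test, and 2 with the replicate block; leaving out 1 library gave 0 to 11. The count called lower, 1 with all libraries, was 0 under the filter of 5 CPM in 3 libraries, which removed Pmvk, and 3 with DESeq2, and leaving out 1 library gave 1 to 4. Fdps missed the threshold with DESeq2 size factors, library totals, no filter, the stricter filter and the block (adjusted p = 0.0546, 0.0823, 0.0583, 0.086 and 0.119), and Hsd17b7 and Stard4 with the block (0.0658 and 0.0772). DESeq2 added Npc1, Abcg1 and Abca1 (0.0223, 0.0192 and 0.00715). The median log2 fold change of the sterol genes stayed between 0.11 and 0.19.

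Over all genes 878 were higher and 798 lower, against 513 and 525 with the stricter filter, 1329 and 1342 with DESeq2 and 327 and 210 with the replicate block; leaving out 1 library gave 216 to 2526 higher and 141 to 2673 lower. The related lists had 3 higher and 4 lower, against 1 and 2 with the stricter filter, 9 and 6 with DESeq2 and 1 and 3 with the block; leaving out 1 library gave 0 to 19 higher and 2 to 17 lower. The log2 fold change of Prdm10 stayed between -2.83 and -2.37. The stricter filter tested fewer genes; the cause of the other changes was not tested. No called value changed sign.

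The replicate numbers are shared by the genotypes. Deviations from the group means correlated across genes at -0.0855, -0.00519 and -0.107 between libraries of the same number, 1 to 3. Between libraries of unlike number they correlated at -0.0524 to 0.0969, so like numbers were no more alike. With 3 libraries in a group the deviations are not independent, and these values cannot decide whether the numbers pair the libraries. Why calls were lost under the block was not tested.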
